A study of Mus musculus with 6 samples.

Results

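Glycine receptor subunits, plasma membrane glycine transporters and gephyrin were examined in 2 sets of dopaminergic neurons of the mouse substantia nigra pars compacta (SNc), sorted as Sox6+ or Sox6-. The set consisted of 7 genes of the 23337 symbols in the deposited expression table: the alpha subunit genes Glra1, Glra2 and Glra3, the beta subunit gene Glrb, the transporter genes Slc6a5 and Slc6a9, and Gphn, which encodes gephyrin. They were chosen by symbol, with the difference between Sox6+ and Sox6- neurons already known, so their values in that comparison are a description and carry no test. The neurons came from adult C57BL/6 mice that carried Sox6-FSF-Cre and Th-2A-Flpo together with RC-Frepe, a reporter: both a Cre and a Flp recombinase act on the reporter and so set the fluorescent protein of each cell. Sox6+ neurons were sorted by GFP and Sox6- neurons by mCherry, both from the same genotype. Flpo was driven from Th, so only cells with a history of Th expression could be labelled, and Cre from Sox6. There were 3 libraries per group, and in each group they carry the numbers 103, 825 and 1211, the order in which values are given. Whether each library was a separate animal is not stated, so the p-values rest on the spread among these libraries, which may be technical.

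Glycine receptors are chloride channels built from alpha subunits, which bind glycine, and the beta subunit, which binds gephyrin. Gephyrin is the scaffold that anchors glycine receptors and many GABA-A receptors at inhibitory synapses. Channels of alpha subunits alone can form, but without beta they are not held by gephyrin. Glycine released in the brainstem and spinal cord is packaged by neurons that carry the transporter GlyT2 (Slc6a5), and extracellular glycine is cleared largely by GlyT1 (Slc6a9). In the rat, strychnine-sensitive glycine currents have been recorded from dopaminergic neurons of the substantia nigra.

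Values are normalized read counts, that is, reads in a gene divided by a size factor per library. The libraries held 11660282, 10397924 and 12952768 reads in genes in Sox6+ neurons and 11674328, 11262784 and 11841366 in Sox6- neurons. Sox6 itself had 841, 461 and 389 normalized reads in the Sox6+ libraries and 104, 18.1 and 36.2 in the Sox6- libraries, with no overlap (log2 difference 3.66 ± 0.597 SE, limma adjusted p = 0.0528). Across the alternative settings that adjusted p ran between 2.21e-06 and 0.27.

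The summed level of 10 dopaminergic markers was 147930, 255240 and 239560 in Sox6+ libraries and 61758, 139690 and 44941 in Sox6- libraries. The sum includes Aldh1a1, at 45219, 55489 and 66305 in Sox6+ libraries and 19549, 11201 and 7227 in Sox6- libraries. Aldh1a1, Slc18a2, Drd2 and Lmx1b did not overlap between the groups, while Th, Slc6a3, Ddc, Nr4a2, Pitx3 and En1 did. All 10 were detected in both groups, with Lmx1b at 0 in Sox6- library 103. The sum of 7 GABAergic markers was 7070, 5.69 and 2341 in Sox6+ libraries and 15700, 4462 and 12441 in Sox6- libraries. The sum of 3 vesicular glutamate transporter genes was 999, 163 and 764 in Sox6+ libraries and 2608, 2263 and 4815 in Sox6- libraries, most of it Slc17a6. Sox6+ library 825 stood apart: its macrophage markers summed to 27914, mostly Lyz2, against at most 71.0 in the other 5 libraries, its oligodendrocyte markers summed to 2071, and its GABAergic list was near 0. For several genes the value without it is given as well. The astrocyte list summed to 452, 808 and 1049 in Sox6+ libraries and 444, 663 and 418 in Sox6- libraries and was mostly Slc1a2, with Gjb6 and Gja1 at 0 in all 6.

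Glra2 was the alpha subunit gene with the most reads in both groups together, and it was lower in Sox6+ neurons. It encodes the alpha 2 subunit, known as the main alpha subunit of the embryonic brain. On the mouse assembly GRCm38 it lies on the minus strand of chromosome X, from 165129017 to 165327393. Because Glra2 and the related gene Glra4 were the alpha genes lower in every Sox6+ library, and Glrb the gene whose level varied least, the 300 bases around their start sites are printed, 250 before and 50 after, from RefSeq on GRCm38.p6. Each is read 5′ to 3′ on the gene's own strand, and capitals mark CG dinucleotides. The windows are chrX:165327344-165327643 for Glra2, chrX:136779672-136779971 for Glra4 and chr3:80913611-80913910 for Glrb, all on the minus strand.
Glra2: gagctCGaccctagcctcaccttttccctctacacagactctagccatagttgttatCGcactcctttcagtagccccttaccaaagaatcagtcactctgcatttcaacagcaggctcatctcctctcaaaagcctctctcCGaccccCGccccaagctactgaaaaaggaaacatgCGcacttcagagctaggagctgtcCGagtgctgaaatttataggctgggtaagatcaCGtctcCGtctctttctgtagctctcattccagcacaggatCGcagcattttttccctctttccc
Glra4: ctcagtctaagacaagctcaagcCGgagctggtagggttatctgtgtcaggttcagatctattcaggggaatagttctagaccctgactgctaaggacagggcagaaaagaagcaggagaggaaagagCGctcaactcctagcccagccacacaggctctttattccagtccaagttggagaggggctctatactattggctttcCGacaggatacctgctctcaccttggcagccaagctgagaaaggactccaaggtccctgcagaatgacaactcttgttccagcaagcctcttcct
Glrb: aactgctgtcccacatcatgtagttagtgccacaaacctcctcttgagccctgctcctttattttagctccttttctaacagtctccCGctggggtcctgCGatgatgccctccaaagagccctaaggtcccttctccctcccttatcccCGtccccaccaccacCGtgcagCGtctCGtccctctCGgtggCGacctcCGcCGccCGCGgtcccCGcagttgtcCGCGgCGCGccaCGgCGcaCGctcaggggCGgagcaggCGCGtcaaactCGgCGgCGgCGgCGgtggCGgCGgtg
The Glra2 window held 9 CG dinucleotides and the Glra4 window 3, against 30 in the Glrb window, and the median of 32851 promoter windows of this length was 7. Their GC content was 50.3%, 51.3% and 65.7% in the same order, with a median of 52.7% over all windows. The Gphn window, chr12:78226405-78226704 on the plus strand, held 42 CG dinucleotides at 77.0% GC, more CG than 97.0% of all windows, while Glra3 held 8. The motif AACAAT, a core sequence bound by Sox factors, was searched on both strands. It was in none of the windows of the 6 members with a promoter entry, nor in that of Glra4, and 10.7% of all windows held it. No match says only that these letters are not in this window.

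Glra2 had 143, 196 and 64.7 normalized reads in Sox6+ libraries and 442, 409 and 693 in Sox6- libraries. All 3 Sox6+ values lay below all 3 Sox6- values, and the lowest and the highest of the 6 were both in libraries numbered 1211. The means were 135 ± 66.0 in Sox6+ neurons and 515 ± 155 in Sox6- neurons (SD, n = 3 each), a log2 difference of -2.03 ± 0.413 (SE), or 4.08-fold higher in Sox6- neurons. It rested on 387 reads in Sox6+ neurons and 1614 in Sox6- neurons.

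The Glra2 difference had the same direction within each library number, with log2 differences of -1.62 for 103, -1.06 for 825 and -3.40 for 1211. Without Sox6+ library 825 it was -2.37, and leaving out Sox6+ library 1211 gave -1.57, the smallest size of any setting. Among the tested genes of its own library, Glra2 stood at percentile 40.2, 47.4 and 27.9 in Sox6+ libraries and at 64.2, 64.0 and 74.4 in Sox6- libraries. In the authors' deposited table, whose fold changes run as Sox6- over Sox6+, Glra2 had a log2 fold change of 1.94.

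Some markers of other neurons ran in the same direction as Glra2, and as Glra4 and Fam196a described further on. The glutamatergic sum was lower in every Sox6+ library than in any Sox6- library, and Sox6- library 1211, with the most Glra2, had the highest glutamatergic sum and the lowest dopaminergic sum. Of the 7 GABAergic markers, 2, 6 and 3 were at 0 in the Sox6+ libraries and none in the Sox6- libraries, and Sst alone had 1.97, 0 and 0 normalized reads in Sox6+ libraries and 3958, 3164 and 5814 in Sox6- libraries. Pvalb, of the same list, had 401, 0 and 869 in Sox6+ libraries and 60.4, 66.5 and 128 in Sox6- libraries, with a higher mean in Sox6+ neurons. The GABAergic sums overlapped between the groups. Sox6+ library 825, with a GABAergic sum of 5.69, had the most Glra2 among the Sox6+ libraries, at 196. Its glutamatergic sum, 163, was the lowest of all libraries. Sox6+ library 1211 had a glutamatergic sum of 764 and the least Glra2, at 64.7, so the glutamatergic sum and Glra2 did not run together within the Sox6+ group. The part of these markers in the differences of Glra2, Glra4 and Fam196a was not tested. In bulk samples, fewer cells that transcribe a gene and less RNA per cell cannot be told apart.

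Glra3 had 163, 121 and 103 normalized reads in Sox6+ libraries and 79.6, 146 and 99.2 in Sox6- libraries, and the groups overlapped. It encodes the alpha 3 subunit, known for its role in the dorsal horn of the spinal cord. Means were 129 ± 30.9 in Sox6+ neurons and 108 ± 34.1 in Sox6- neurons (SD, n = 3 each), a log2 difference of 0.27 ± 0.375 (SE), smaller than its standard error. It lies on chromosome 8 between 55940460 and 56130070, on the plus strand.

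Glra1, the main alpha subunit gene of the adult spinal cord and brainstem, was barely detected. It had 6, 0 and 1 reads in Sox6+ libraries and 3, 3 and 16 in Sox6- libraries, so 1 Sox6- library, number 1211, held 16 of the 22 Sox6- reads. Per read in genes, it was 3.16-fold higher in Sox6- neurons, with an exact 95% interval of 1.31 to 8.77 that covers counting error only and not the spread between libraries. Without Sox6- library 1211 the ratio was 1.31, with an interval of 0.363 to 4.55. Its mean lay below the minimum of 10 normalized reads, so it was not among the tested genes. Glra1 lies on the minus strand of chromosome 11, from 55514238 to 55608198, and at exon positions it overlaps the span of the antisense gene Gm12236.

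Glra4 encodes a further alpha subunit and, unlike the rodent gene, is regarded as a pseudogene in humans. It had 0 reads in all 3 Sox6+ libraries and 16, 13 and 58 reads in Sox6- libraries, which are 15.4, 13.1 and 53.8 normalized reads. Set against a floor of 3 reads over the group, the summed reads of Glra4 gave a limit of 29.2-fold lower in Sox6+ neurons. It takes the Sox6- reads as counted and does not cover their counting error or the spread between libraries. Sox6- library 1211 held 58 of the 87 reads, and without it this limit was 14.8-fold. On the log2(value + 1) scale the difference was -4.54 ± 1.5 (SE, limma adjusted p = 0.296), which did not pass the threshold of 0.05. Over the settings its adjusted p ran between 0.0114, with DESeq2 on recovered reads, and 0.869. The authors' deposited DESeq2 results gave Glra4 an adjusted p of 0.00763. At exon positions, Glra4 overlaps the span of BC065397 on the opposite strand, a gene that the table lists separately.

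**Figure D1:**
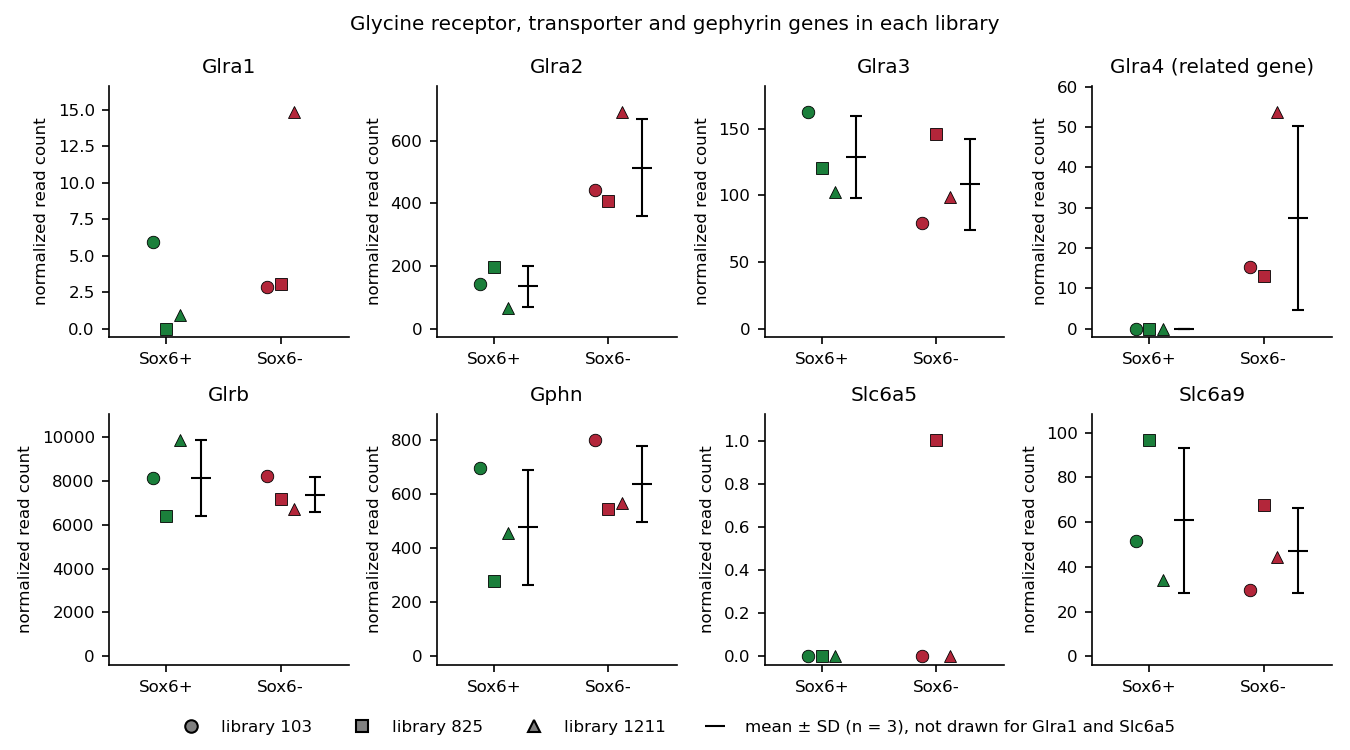
Normalized read counts of 7 genes and the related gene Glra4 (vertical axes, a separate scale for each gene) in the Sox6+ libraries (left, green) and Sox6- libraries (right, red). Symbols mark library numbers, and bars mark mean ± SD (n = 3), which are not drawn for Glra1 and Slc6a5. The Sox6+ values of Glra2, 64.7 to 196, all sit below the Sox6- values, 409 to 693, while the groups overlap for Glra3, Glrb, Gphn and Slc6a9.

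Read counts were divided by the exon length of each gene to set levels of different genes side by side, in normalized reads per kilobase (kb) of the union of GENCODE M21 exons. The 4 alpha subunit genes together had 57.6 ± 22.7 per kb in Sox6+ neurons and 192 ± 62.4 per kb in Sox6- neurons (SD, n = 3 each). Glra2 made up 69.3%, 82.6% and 64.1% of this alpha level in Sox6+ libraries and 88.9%, 84.6% and 83.4% in Sox6- libraries. Per kb, the alpha pool was thus mostly Glra2 in every library. Its Glra2 share was lower in all 3 Sox6+ libraries than in any Sox6- library. Without division by length, Glra3 exceeded Glra2 in Sox6+ library 103 (163 against 143 normalized reads) and in Sox6+ library 1211 (103 against 64.7).

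Glra3 made up 27.0%, 17.4% and 34.7% of the alpha level in Sox6+ libraries and 5.48%, 10.3% and 4.09% in Sox6- libraries. Its share was higher in all 3 Sox6+ libraries although its own level overlapped between the groups. Glra4 made up 4.84%, 4.25% and 10.2% in Sox6- libraries and had no reads in Sox6+ libraries. The ratio of Glra2 to Glra3 per kb was 2.57, 4.74 and 1.84 in Sox6+ libraries and 16.2, 8.18 and 20.4 in Sox6- libraries. With the mean length of the coding transcripts in place of the exon union, an alternative chosen after the data were seen, the ratio averaged 2.16 ± 1.07 in Sox6+ neurons and 10.6 ± 4.39 in Sox6- neurons (SD, n = 3 each).

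**Figure D2:**
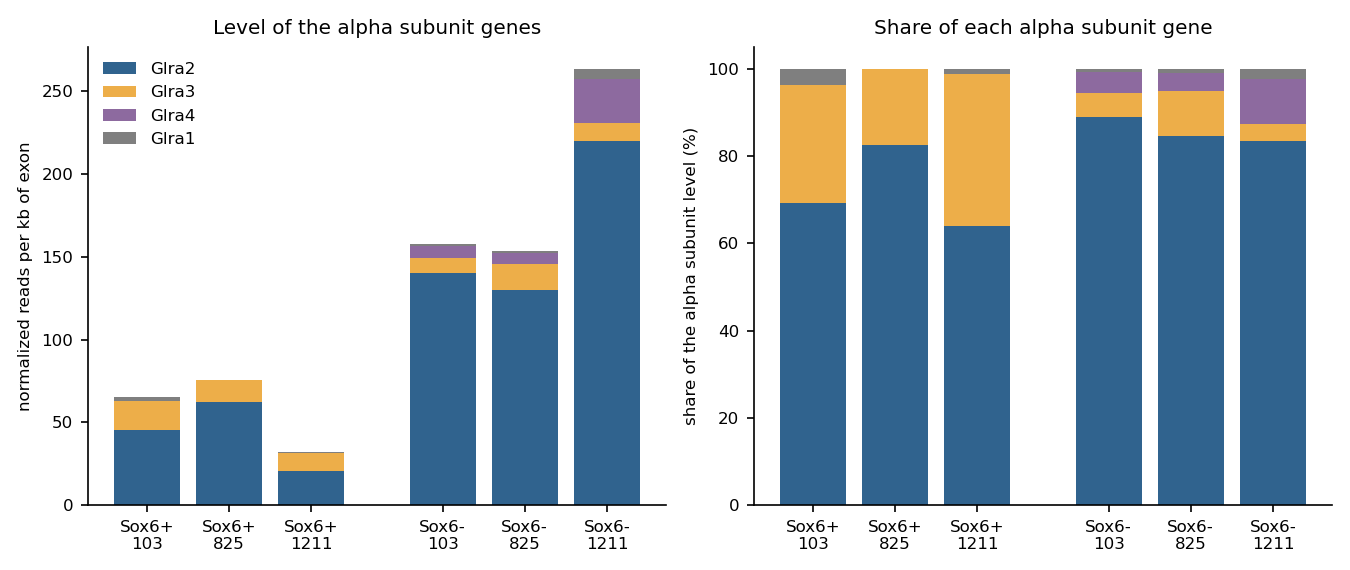
Alpha subunit genes in each library, as normalized reads per kb of exon (left panel) and as a share of their sum in percent (right panel), with the 3 Sox6+ libraries left of the 3 Sox6- libraries and a colour for each gene. The summed bars of the Sox6+ libraries average 57.6 per kb, below every Sox6- bar, and the Glra3 share is 17.4% to 34.7% in Sox6+ libraries against 4.09% to 10.3% in Sox6- libraries.

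Glrb was the most abundant of the 7 genes and did not follow Glra2. It encodes the beta subunit, which carries the gephyrin binding site, and is transcribed in many brain regions. It had 8121, 6403 and 9891 normalized reads in Sox6+ libraries and 8247, 7180 and 6705 in Sox6- libraries, with overlapping groups. The highest of the 6 values was 1.54 times the lowest. Means were 8138 ± 1744 in Sox6+ neurons and 7377 ± 789 in Sox6- neurons (SD, n = 3 each), a log2 difference of 0.12 ± 0.172 (SE) that became -0.03 without Sox6+ library 1211 and 0.29 without Sox6+ library 825. Glrb ranked at percentile 97.8 to 98.7 of tested genes in every library. It lies on the minus strand of chromosome 3, from 80843599 to 80913660.

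Per kb, Glrb exceeded the summed alpha subunit genes 26.6, 18.3 and 66.3 times in Sox6+ libraries and 11.2, 10.1 and 5.46 times in Sox6- libraries. The excess was larger in every Sox6+ library, and it was smallest in Sox6- library 1211. Its size depends on the length used: with the mean length of coding transcripts the ratio averaged 84.1 ± 56.0 in Sox6+ neurons and 21.9 ± 7.49 in Sox6- neurons (SD, n = 3 each), against 37.1 ± 25.7 and 8.92 ± 3.05 with the exon union, in the same order of groups.

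Gphn had 697, 277 and 454 normalized reads in Sox6+ libraries and 800, 546 and 568 in Sox6- libraries. Besides its role as a synaptic scaffold, gephyrin catalyses the last steps of molybdenum cofactor synthesis. The groups overlapped, since Sox6+ library 103 lay above 2 of the Sox6- libraries. Within each library number the Sox6+ value was the lower one, and the lowest of the 6 was that of Sox6+ library 825. Means were 476 ± 211 in Sox6+ neurons and 638 ± 141 in Sox6- neurons (SD, n = 3 each), a log2 difference of -0.50 ± 0.328 (SE). It was -0.16 without Sox6+ library 825 and -0.82 without Sox6+ library 103. Gphn lies on the plus strand of chromosome 12, from 78226379 to 78684772.

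Slc6a9 had 51.3, 96.8 and 34.2 normalized reads in Sox6+ libraries and 29.7, 67.5 and 44.5 in Sox6- libraries, with overlapping groups. It encodes GlyT1, which is known mainly from astrocytes and also from some glutamatergic neurons. In both groups library 825 had the most. Means were 60.8 ± 32.4 in Sox6+ neurons and 47.2 ± 19.0 in Sox6- neurons (SD, n = 3 each). The log2 difference of 0.30 ± 0.576 (SE) was smaller than its standard error and became -0.09 without Sox6+ library 825. Slc6a9 lies on the plus strand of chromosome 4, from 117834506 to 117875198, and its exons overlap Ccdc24 and B4galt2 on the opposite strand, both listed separately in the table.

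Slc6a5 was not detected in Sox6+ libraries and had 1 read in all 6 libraries, in Sox6- library 825. It encodes GlyT2, the defining transporter of glycinergic neurons. A count of 0 allows up to 3 reads, for counting error only. That is 2.96, 3.42 and 2.77 normalized reads in Sox6+ libraries and 2.88 and 2.78 in Sox6- libraries 103 and 1211. It does not apply to Sox6- library 825, which held the 1 read. The other hindbrain markers were at or near 0 as well: the list of 6, which includes Slc6a5, summed to 0 in 5 libraries and to 10.1 in Sox6- library 825. Slc6a5 lies on the plus strand of chromosome 7, from 49910146 to 49963856.

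Ordered by level per kb over all 6 libraries (mean ± SD, n = 6), Glrb came first with 1667 ± 275, followed by Gphn with 149 ± 48.9 and Glra2 with 103 ± 74.3. Glra3 followed with 12.9 ± 3.39 and Slc6a9 with 10.5 ± 4.84, then Glra4 with a mean of 6.82, Glra1 with 1.90 and Slc6a5 with 0.0233. With the exon union as length, Glrb lay above Gphn, and Glra2 above Glra3, in 6 of 6 libraries with no overlap of their ranges. All other neighbours in this order overlapped. With coding transcript lengths, Glra2 was still above Glra3 in every library, at ratios of 1.3 to 14.4, but the ranges of these genes overlapped. Glra2 was below Gphn in all 3 Sox6+ libraries and in 2 of 3 Sox6- libraries, the exception being Sox6- library 1211, with 45.4, 62.2 and 20.5 per kb in Sox6+ libraries and 140.4, 129.8 and 219.9 per kb in Sox6- libraries. Glra4 was at 0, below Glra1, in the mean of the Sox6+ libraries, and had 7.64, 6.51 and 26.8 per kb in Sox6- libraries. Its Sox6- mean of 13.6 ± 11.4 per kb (SD, n = 3) was above those of Glra3, 11.8 ± 3.70, and Slc6a9, 9.19 ± 3.70, but of the Sox6- libraries only 1211 had more Glra4 than Glra3.

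**Figure D3:**
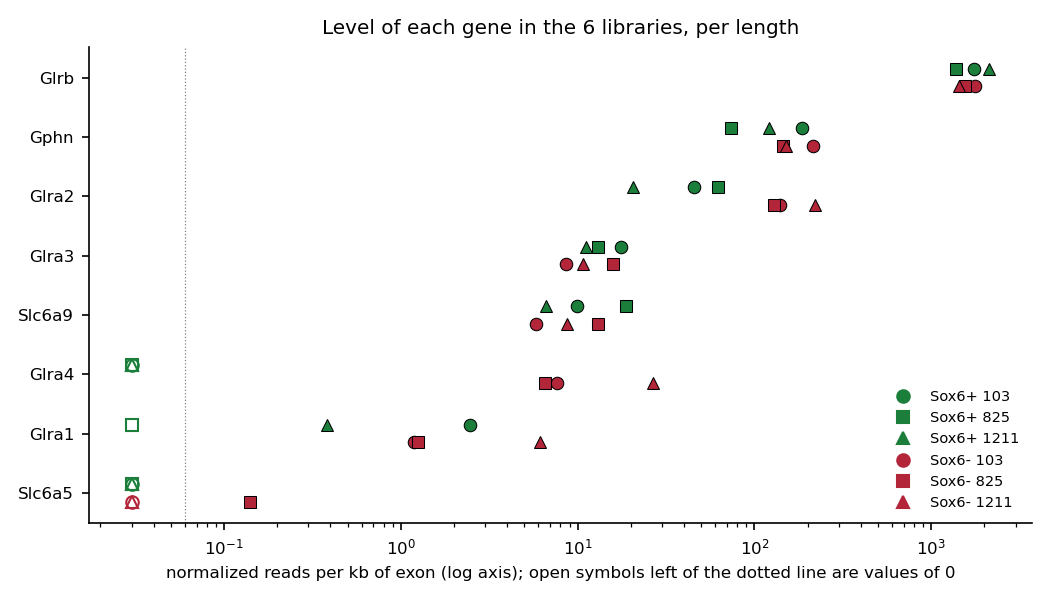
Level of each gene in each of the 6 libraries, as normalized reads per kb of exon on a log axis, with Sox6+ libraries (green) drawn above Sox6- libraries (red) and open symbols for values of 0. The lowest Glrb value, 1375 per kb, lies above the highest Gphn value, 213 per kb, and the green symbols of Glra2 all lie left of its red ones.

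Of the 7 genes, 5 passed the filter on low values, and Glra1 and Slc6a5 did not. With limma, 0 of these 5 passed an adjusted p of 0.05, a threshold that 0.304% of all 13175 tested genes passed. At an unadjusted p under 0.05 the count was 1 of 5, Glra2, against 11.4% of all tested genes. Glra2 was also the one member called by DESeq2 on the recovered reads (2.98% of genes called) and in the authors' deposited table (2.83% called), and edgeR called none of the 5 (0.0455% called). Groups did not overlap for 1 of the 5, against 17.0% of all tested genes. These counts describe a comparison in which the genes were chosen, and nothing is read from them.

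Other genes of glycine signalling were taken from lists of glycine transport, glycine and serine metabolism, gephyrin partners, the molybdenum cofactor, chloride transport and glycine-binding NMDA receptor subunits. Of 68 such genes in the table, 54 were tested: 28 had positive and 26 negative log2 differences, with a median of 0.02, against -0.02 over all tested genes. With limma, 0 of the 54 passed an adjusted p of 0.05, and edgeR also called 0. DESeq2 called 2, Glra4 and Fam196a, both lower in Sox6+ neurons, beside the 2.98% of all genes that it called. At an unadjusted p under 0.05, 6 were higher and 4 lower in Sox6+ neurons, beside 11.4% of all tested genes, of which 687 were higher and 813 lower. Groups did not overlap for 10 of the 54, beside the 17.0% of all tested genes.

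Among 23 tested gephyrin partners and organizers of the inhibitory postsynapse, 13 differences were positive and 10 negative, with a median of 0.14. Fam196a, listed in RefSeq as Insyn2a and encoding an inhibitory synaptic factor, had 37.5, 11.4 and 22.2 normalized reads in Sox6+ libraries and 142, 120 and 140 in Sox6- libraries. All Sox6+ values lay well below the Sox6- values (log2 difference -2.59 ± 0.538 SE, limma adjusted p = 0.0974), and the adjusted p ran between 0.00276 and 0.472 over the settings. Without Sox6+ library 825 the difference was -2.17, and without Sox6+ library 103 its limma adjusted p was 0.0397. Pfn1, which encodes the actin-binding protein profilin 1, had 2804, 4788 and 4488 normalized reads in Sox6+ libraries and 2217, 2883 and 2435 in Sox6- libraries. These ranges overlapped slightly, and the difference of 0.65 ± 0.213 (SE) had a limma adjusted p of 0.287. Over the settings the adjusted p of Pfn1 ran between 0.0397, without Sox6+ library 103, and 0.819. Without Sox6+ library 825, which had the highest Pfn1 value, the difference was 0.51 (limma adjusted p = 0.514).

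Iqsec3 and Nlgn2 were picked after their values were seen. Iqsec3, which encodes an exchange factor that binds gephyrin, had 276, 281 and 318 in Sox6+ libraries and 232, 184 and 200.3 in Sox6- libraries. The groups did not overlap (log2 difference 0.51 ± 0.243 SE, limma adjusted p = 0.46). In all, 7 of 23 partners did not overlap between the groups, 6 higher and 1 lower in Sox6+ neurons, beside 17.0% of all 13175 tested genes, of which 1035 were higher and 1211 lower. None of the 23 passed the limma threshold. Nlgn2, the neuroligin of inhibitory synapses, overlapped fully, with 112, 142 and 149 in Sox6+ libraries and 137, 123 and 163 in Sox6- libraries.

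Of the 4 tested genes of glycine transport outside the set, 2 were positive and 2 negative, with a median of -0.64. Slc6a17, a synaptic vesicle transporter of neutral amino acids including glycine, had 133, 75.2 and 53.6 normalized reads in Sox6+ libraries and 276, 139 and 321 in Sox6- libraries. The groups just failed to overlap, at 133 against 139, and the log2 difference of -1.50 ± 0.452 (SE) had a limma adjusted p of 0.25. Slc38a1, a neuronal glutamine transporter, differed by 0.51 ± 0.209 (SE, limma adjusted p = 0.407), or by 0.36 without Sox6+ library 825. Slc32a1, the vesicular transporter for GABA and glycine, had 191, 5.69 and 34.2 in Sox6+ libraries and 305, 27.2 and 141 in Sox6- libraries, a wide overlap within which Sox6+ library 825 was lowest.

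Of 9 tested genes of glycine and serine metabolism, 5 were positive and 4 negative, with a median of 0.02. Psph, which encodes the phosphatase of the last step of serine synthesis, had 211, 421 and 225 normalized reads in Sox6+ libraries and 114, 205 and 140.0 in Sox6- libraries. The groups did not overlap, by a narrow margin, and the difference of 0.86 ± 0.362 (SE) had a limma adjusted p of 0.413. It was 0.55 without Sox6+ library 825. Gcsh, the carrier protein of the glycine cleavage system, differed by 0.29 ± 0.183 (SE, limma adjusted p = 0.57).

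Among 9 tested chloride cotransporter and kinase genes, 6 were positive and 3 negative, with a median of 0.14. Slc12a5, which encodes KCC2, the cotransporter that lowers chloride in mature neurons, had 567, 388 and 493 normalized reads in Sox6+ libraries and 564, 594 and 872 in Sox6- libraries. The groups overlapped at 567 and 564, and the difference of -0.47 ± 0.239 (SE) had a limma adjusted p of 0.483. Stk39, a kinase that acts on these cotransporters, differed by 0.54 ± 0.294 (SE, limma adjusted p = 0.516). Slc12a2, which encodes the chloride importer NKCC1 and was picked after its values were seen, had 204, 175 and 140 in Sox6+ libraries and 168, 195 and 147 in Sox6- libraries, a full overlap.

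The 6 tested genes of molybdenum cofactor synthesis and molybdenum enzymes had 2 positive and 4 negative differences, with a median of -0.07, and none lacked overlap between the groups. Mocs3 differed by -0.25 ± 0.371 (SE, limma adjusted p = 0.832) and Mocs2 by 0.08 ± 0.145 (SE, limma adjusted p = 0.87), both genes of cofactor synthesis. Both tested NMDA receptor subunit genes that bind glycine were lower in mean in Sox6+ neurons, with a median log2 difference of -0.84. Grin3a, encoding a subunit of unconventional NMDA receptors, had 85.8, 30.7 and 23.1 normalized reads in Sox6+ libraries and 85.4, 83.6 and 131 in Sox6- libraries. Sox6+ library 103 reached the Sox6- range, and the difference of -1.29 ± 0.565 (SE) had a limma adjusted p of 0.435. Grin1, the obligatory NMDA receptor subunit, differed by -0.39 ± 0.347 (SE, limma adjusted p = 0.704), or by -0.67 without Sox6+ library 825.

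**Figure D4:**
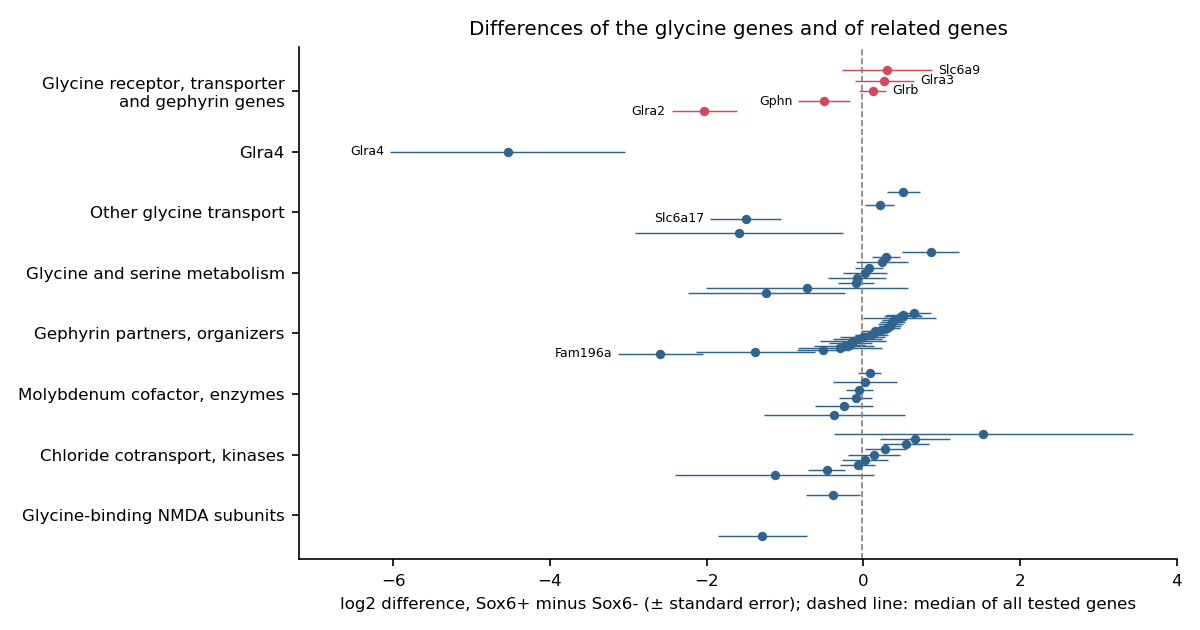
Log2 difference of each tested gene, Sox6+ minus Sox6-, with its standard error (horizontal axis), grouped by list (vertical axis), with the chosen genes in red at the top and other genes of glycine signalling in blue. Most points lie near the dashed median of all tested genes, -0.02, and Glra2 at -2.03, Fam196a at -2.59 and Glra4 at -4.54 lie to its left.

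The genes whose values ran most like those of each tested member were taken as those with the highest Pearson correlation of log2 values over the 6 libraries, among genes with a mean of at least 50. They are a description, picked as the highest of many correlations over 6 libraries that also share group, depth and cell makeup. For Glra2 they were Prosapip1 (listed in RefSeq as Lzts3), Tfdp1 and Acaa1a, with r of 0.988, 0.985 and 0.983. Prosapip1 had 79.9, 99.1 and 49.9 normalized reads in Sox6+ libraries and 140.1, 129 and 154 in Sox6- libraries, the same ranking of libraries at its extremes as Glra2. For Glrb they were Fsd1l, Tiam2 and Acn9, with r of 0.985, 0.978 and 0.963, and for Gphn Zfp187, Twistnb and Cul1, with 0.993, 0.993 and 0.992. For Glra3 they were Trabd, C1qbp and Snx21, with 0.983, 0.956 and 0.952, and for Slc6a9 Pdcd2l, Rbm3 and Ptplad2, with 0.994, 0.986 and 0.984. No gene was named for more than 1 member.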

How the data were processed

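Stranded poly(A) RNA-seq libraries were made from sorted, papain-dissociated neurons, with RNA isolated by a mirVana kit, per the labels' protocols. STAR, HTSeq and DESeq2 appear among the tools in the submitters' processing notes, with cutadapt and FastQC, and GRCm38 (mm10) as the build. None of their versions or settings is given in the sources used here. The table that the authors deposited holds a normalized signal per gene and library, with log2 fold changes (Sox6- over Sox6+), a score (the test statistic) and p-values. Every deposited signal value was a whole multiple of its library's step (100% of values above 0 within 0.01 of a whole number), so reads were recovered by division.

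The 13175 genes whose mean over the 6 libraries reached 10 were tested 2-sided on log2(value + 1) in limma (robust, with a mean-variance trend), without a block, with Benjamini-Hochberg adjustment over all tested genes at 0.05. Log2 differences are on this scale and understate changes of low genes. The alternatives were edgeR and DESeq2 on recovered reads, a block for the library number, a pseudocount of 0.5 or 8, minimum means of 1 and 50 or none, TMM, limma without trend or robust moderation, and leaving out each library. The fit was also run on simulated counts without differences in cell makeup between libraries, and nothing is read from that here. Fits ran in R 4.3.3 with limma 3.58.1, DESeq2 1.42.0 and edgeR 4.0.16. All else ran in Python 3.11.15 with pandas 2.3.3, numpy 2.4.6, matplotlib 3.10.9 and scipy 1.17.1.

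Positions and exon lengths came from the GENCODE M21 annotation of GRCm38 by gene symbol (7 of 7 members), and promoters from RefSeq on GRCm38.p6 (6 of 7, without Glra1). Named genes were all members, Sox6, Glra4, from each list the genes past the threshold or else the 2 of smallest p, and the 3 genes most correlated with each tested member, leaving out predicted genes, Rik clones and pseudogenes. The others named were chosen after their values were seen, and 1 listed gene is not reported here. The members and lists were chosen with earlier results of these data known. No 2 libraries agreed within sampling noise (chi-square per gene of at least 29.7).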

Additional observations from a re-analysis of the deposited data

How the results depend on the processing

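The 17 alternative settings left the direction of Glra2 (-2.37 to -1.57), Glra3 (0.07 to 0.5) and Gphn (-0.82 to -0.16) as in the report, and turned 3 others when 1 library was left out: Glrb ran between -0.03 without Sox6+ library 1211 and 0.29, Slc6a9 between -0.09 without Sox6+ library 825 and 0.64, and Mocs2 between -0.02 without Sox6- library 1211 and 0.13. The cause was not tested. The count of all tested genes past the threshold was 40, and it was 69 with a pseudocount of 8, 66 with a minimum mean of 1, 21 with no filter, 6 with edgeR, 387 with DESeq2 and 24 with limma without trend or robust moderation. Leaving out single libraries gave 1 to 161 genes: 161 without Sox6+ 103, 9 without Sox6+ 825, 8 without Sox6+ 1211, 18 without Sox6- 825 and 1 without Sox6- 1211. Members past the threshold were 0 in every setting but DESeq2, which called 1, Glra2, and leave-one-out gave 0 throughout. Pathway genes past it were 2 with DESeq2 (Glra4 and Fam196a) and 2 without Sox6+ 103 (Fam196a and Pfn1), so leave-one-out ranged between 0 and 2.

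Same-numbered libraries correlated weakly: their deviations from the mean of their own group correlated at 0.268 for 103, 0.172 for 825 and 0.0789 for 1211. Pairs of different numbers ran between -0.236 and 0.0243, so by deviations each library correlated best with its own number. Deviations cancel out within a group, so positive same-number values push the others down. By log2 values themselves, Sox6+ library 1211 correlated better with Sox6- library 825 (0.92) than with Sox6- library 1211 (0.885). These values cannot settle whether the numbers are pairs, and they are not the design. With the replicate block, limma called 267 genes, edgeR 120, 0 members and 2 pathway genes (limma: Fam196a lower, adjusted p = 0.0451, and Pfn1 higher, adjusted p = 0.0425).

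Depth limits Glra1, Glra4 and Slc6a5, whose values rest on few or no reads. With coding transcript lengths, the Glra2 share of the alpha level averaged 65.0% in Sox6+ neurons and 82.7% in Sox6- neurons, against 72.0% and 85.6% with the exon union, and the ratio of Glrb to the alpha genes averaged 84.1 and 21.9. The median log2 difference of all tested genes stayed between -0.04 and 0.0 in every setting.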

Other observations

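Of the alpha subunit genes, Glra2, Glra4 and Glra1 had their highest value in the same library, and Glra3 did not. Sox6- library 1211 held the most Glra2 (693 normalized reads), the most Glra4 (53.8) and the most Glra1 (14.8) of all 6 libraries, and Sox6+ library 1211 held the least Glra2 (64.7). Glra3 was highest in Sox6+ library 103, at 163, and lowest in Sox6- library 103, at 79.6. Fam196a, which was lower in Sox6+ libraries like Glra2, was nearly level across the Sox6- libraries, at 142, 120 and 140.0. Gldc, which encodes the glycine decarboxylase of the cleavage system and was below the filter, had 15.8, 0 and 13.9 normalized reads in Sox6+ libraries and 3.84, 0 and 0 in Sox6- libraries.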
